A study of Mus musculus with 111 samples.

Results

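The genes described are those that copy DNA and supply its building blocks, measured in the lungs of mice given bleomycin or saline. A list of 43 genes was drawn up by function, from origin licensing to nucleotide supply, and a gene was measured where the array annotation gave it a probeset of its own. Of the 43 genes 37 had such a probeset, out of 15707 genes in all, and Cdc6, Mcm4, Pcna, Rfc5, Chaf1a and Rrm2 were not analysed here. Male C57BL6/J mice, 7 to 9 weeks old, received 1 intratracheal spray of bleomycin at 2 U/kg or of saline, and lungs were taken 1, 2, 7, 14, 21, 28 or 35 days later. There were 8 mice per treatment and day, except 7 saline mice at day 14, where 1 array had been removed by the authors as an outlier. RNA came from homogenised lung, with 1 Affymetrix mouse genome array per mouse, 56 of bleomycin and 55 of saline mice. Markers of lung cells were bright, with mean log2 levels of 12.72 to 12.84 for 5 alveolar type II markers and 14.09 to 14.33 for 3 club cell markers in the day 7 saline mice. In such bulk RNA, fewer cells of a type and less RNA per cell cannot be told apart. The model is a single dose in 1 sex of 1 strain, so all groups share both.

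A cell may copy its genome only after the MCM ring, the core of the replicative helicase, has been loaded at origins by the origin recognition complex with Cdt1, a step that geminin blocks. Cdc45, the GINS complex and the kinase of Cdc7 and Dbf4 then fire the loaded origins, and polymerases, primase, the clamp loader and ligase work at the forks while ribonucleotide reductase, thymidine kinase and related enzymes supply deoxynucleotides. Many of these genes are known as targets of E2F factors, which drive entry into S phase, and the intact adult lung is known for slow cell turnover. Bleomycin is a DNA-breaking drug used in rodents to injure the lung and cause fibrosis.

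RefSeq promoter entries (build GRCm38.p6) were matched to 31 of the 37 genes by symbol, and Gins1, Gins2, Gmnn, Pole, Prim2 and Rfc2 had none. The 250 bases before the first listed start were searched on both strands for the E2F letters TTTCCCGC, TTTCGCGC, TTTGCCGC and TTTGGCGC, for the cell cycle homology letters TTTGAA, and for CCAAT, the box bound by NF-Y. The promoters of the genes with the 4 largest day 7 increases that had an entry, and of the 2 genes with the lowest day 7 differences, are printed below, because they stand at opposite ends of the response. They lie at chr17:56303087-56303336 (plus strand), chr11:117826015-117826264 (minus strand), chr2:5012792-5013041 (minus strand), chr8:75109259-75109508 (plus strand), chr5:65335640-65335889 (minus strand) and chr19:5964207-5964456 (minus strand). Each is written 5′ to 3′ on the gene's strand, ends at the base before the start, and has the matched letters in capitals.
Uhrf1: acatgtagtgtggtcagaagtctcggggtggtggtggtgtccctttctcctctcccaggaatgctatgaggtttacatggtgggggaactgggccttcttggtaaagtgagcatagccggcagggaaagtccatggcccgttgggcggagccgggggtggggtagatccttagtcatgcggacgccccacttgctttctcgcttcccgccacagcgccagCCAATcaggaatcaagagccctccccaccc
Tk1: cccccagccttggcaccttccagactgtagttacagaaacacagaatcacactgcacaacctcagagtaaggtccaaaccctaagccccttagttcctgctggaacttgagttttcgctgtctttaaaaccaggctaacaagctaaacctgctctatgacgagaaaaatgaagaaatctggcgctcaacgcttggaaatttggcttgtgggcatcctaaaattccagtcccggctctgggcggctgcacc
Mcm10: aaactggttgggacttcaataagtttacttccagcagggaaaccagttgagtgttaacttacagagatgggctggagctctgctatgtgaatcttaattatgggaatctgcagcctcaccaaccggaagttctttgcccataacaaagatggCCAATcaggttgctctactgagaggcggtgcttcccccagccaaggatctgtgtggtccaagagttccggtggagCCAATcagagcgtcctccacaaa
Mcm5: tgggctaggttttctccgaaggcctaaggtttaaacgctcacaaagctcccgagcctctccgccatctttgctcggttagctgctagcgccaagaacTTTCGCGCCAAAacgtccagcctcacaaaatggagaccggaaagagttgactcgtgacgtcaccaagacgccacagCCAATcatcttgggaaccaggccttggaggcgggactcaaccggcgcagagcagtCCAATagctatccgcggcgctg
Rfc1: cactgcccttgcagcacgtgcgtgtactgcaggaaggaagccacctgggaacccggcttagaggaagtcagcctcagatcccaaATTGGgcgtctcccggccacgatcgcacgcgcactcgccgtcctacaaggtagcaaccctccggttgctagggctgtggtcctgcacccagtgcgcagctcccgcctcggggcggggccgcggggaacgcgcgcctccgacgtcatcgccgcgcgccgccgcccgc
Pola2: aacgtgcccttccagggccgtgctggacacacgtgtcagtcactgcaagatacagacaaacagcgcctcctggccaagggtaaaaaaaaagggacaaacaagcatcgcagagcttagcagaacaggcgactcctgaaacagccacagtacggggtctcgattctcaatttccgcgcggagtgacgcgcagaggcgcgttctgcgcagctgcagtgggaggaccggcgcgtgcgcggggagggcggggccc
In Mcm5 a forward TTTCGCGC overlapped a reverse TTTGGCGC, while Tk1 and Pola2 held none of the letters searched. Any of the 4 E2F strings stood in 6 of the 31 promoters (19.4%), those of Mcm5, Mcm6, Mcm7, Orc1, Pola1 and Rfc3, and in 1.91% of all 27025 promoters. CCAAT stood in 17 of 31 (54.8%, against 34.5% of all) and TTTGAA in 3 of 31 (9.68%, against 16.3% of all). The bases G and C made up a median of 56.8% of the 31 promoters and 52.0% of all promoters. The part of this base content in the shares was not tested. The day 7 log2 differences of the 6 genes with an E2F string had a median of 0.56, and those of the 25 without one a median of 0.74. These are matches of letters and not sites of binding.

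Most replication genes were higher in bleomycin mice at days 2, 7, 14 and 21, with the largest median differences at days 7 and 14, and few were called at days 1, 28 and 35. Of the 37 genes, 22 were higher at day 2 (adjusted p under 0.05 in limma, as for all calls here), against 14.2% of all genes, and 15 were not called. The number was 34 at day 7 (25.7% of all genes) and 30 at day 14 (21.9%), then 20 at day 21 (20.5%). At day 1 only 4 were higher (14.7% of all genes), 2 at day 28 (11.5%) and 3 at day 35 (16.9%). Against the pooled saline arrays of all days more genes were higher at day 28, as given in the last section. The median log2 difference between bleomycin and saline over the 37 genes was 0.01, 0.27, 0.68, 0.55, 0.21, 0.03 and 0.02 from day 1 to day 35, while over all genes it lay between -0.01 and 0.02 on each day. The largest difference fell on day 7 for 31 genes, on day 14 for 5 and on day 28 for 1, Rfc1, whose difference that day was -0.02.

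None of the 37 genes was lower at days 2, 7 or 14, also at unadjusted p under 0.05 or with an ordinary contrast without shared variances, while 13.1%, 21.9% and 19.7% of all genes were lower. With the brightest probeset of each gene in place of the most variable one, 1 gene, Pola2, was lower at day 14. At day 7 every bleomycin mouse lay above every saline mouse for 29 genes, a separation that 10.3% of all genes had. It held for 22 genes at day 14 (10% of all genes), for 4 at day 2 (1.41%) and for 1 at day 21 (2.02%), Mcm2. More than 2-fold increases were seen for 9 genes at day 7 (2.85% of all genes) and for 4 at day 14 (2.41%).

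**Figure D1:**
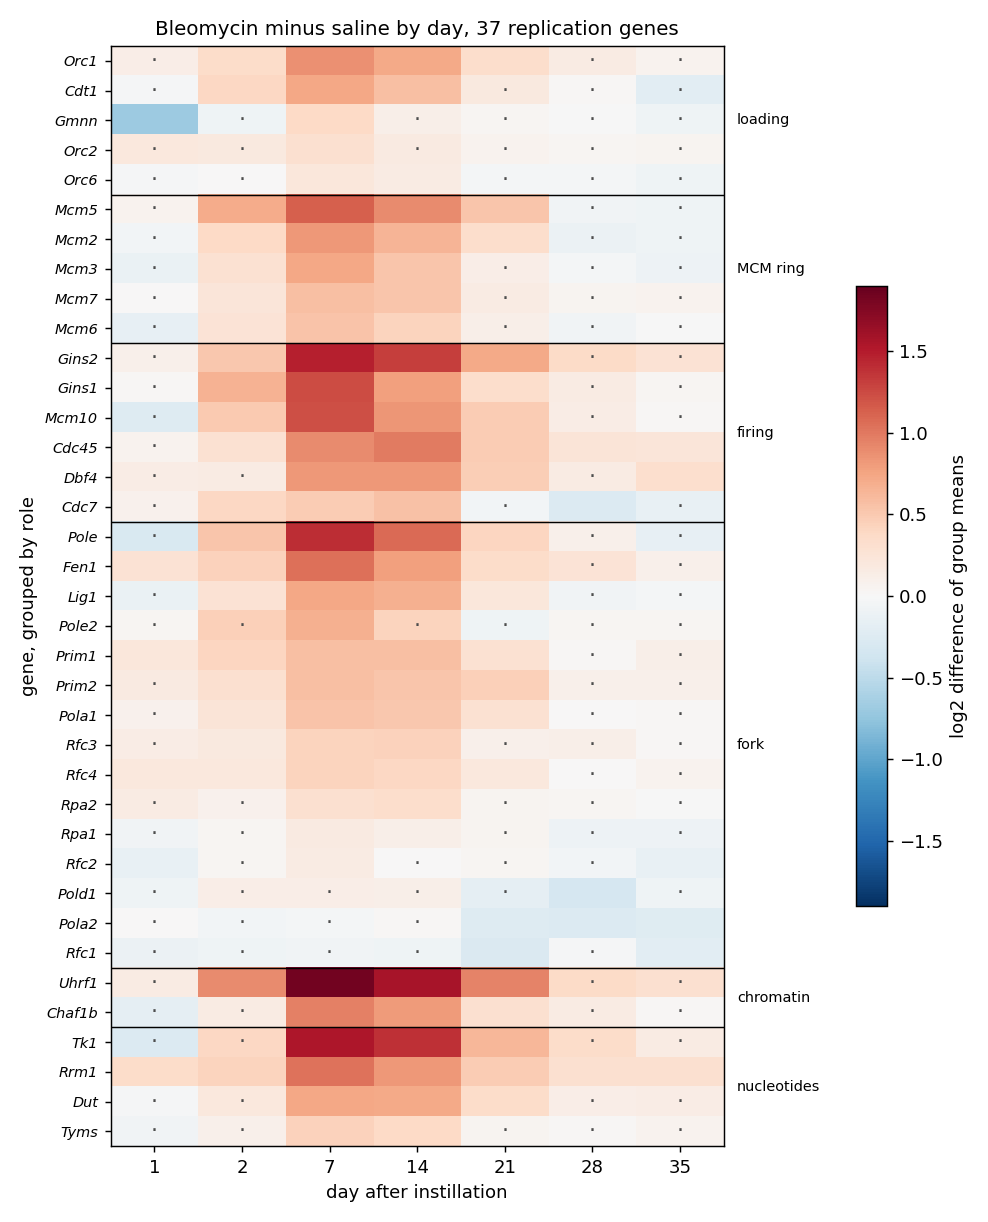
Difference between the bleomycin and saline group means (log2, colour) for the 37 genes by day, grouped by role, with a dot where the adjusted p was 0.05 or more. Differences at days 7 and 14 are positive (red) in 35 and 36 genes and called higher in 34 and 30. The darkest cell is Uhrf1 at day 7 (1.84), and the darkest blue cell is Gmnn at day 1 (-0.69).

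Among the genes that recognise origins and load the MCM ring, all 5 measured were higher at day 7 and 3 at day 14, with a median day 7 log2 difference of 0.38. Orc1 encodes the largest subunit of the origin recognition complex. At day 7 its log2 levels in bleomycin mice ran from 6.40 (median 6.82) to 7.07 and in saline mice from 5.71 (median 5.96) to 6.03. The 2 groups did not overlap, and the difference of 0.87 (standard error 0.10) was 1.83-fold (adjusted p = 2e-12). A second Orc1 probeset gave a smaller difference of 0.33.

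Cdt1, which brings the MCM ring to the origin, had day 7 levels from 10.65 (median 10.83) to 10.93 after bleomycin and from 9.68 (median 10.06) to 10.46 after saline. All bleomycin mice were above all saline mice, and the group means differed by 0.74 (standard error 0.11) on the log2 scale (adjusted p = 1.16e-08). The probesets used for the other origin recognition subunits changed less, with day 7 differences of 0.30 for Orc2 and 0.21 for Orc6. The day 7 response of 1 Orc2 probeset minus those of the others was -0.44 and -0.26. The size for Orc2 therefore rests on the probeset, and its call may too.

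Gmnn, which encodes geminin, the inhibitor of Cdt1, went the other way at day 1. Its levels in bleomycin mice at day 1 ran from 9.76 (median 10.02) to 10.29 and in saline mice from 10.42 (median 10.74) to 10.95. All 8 bleomycin mice lay below all 8 saline mice, which was seen for no other of the 37 genes that day and for 1.46% of all genes. The fall of 0.69 (standard error 0.08) on the log2 scale left 0.619 of the saline level (adjusted p = 1.08e-10). Saline mice of day 1 had the highest Gmnn mean of the 7 saline groups, and against all saline arrays together the log2 difference was -0.50.

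Gmnn then rose. The difference between bleomycin and saline was -0.09 at day 2 and 0.38 at day 7 (adjusted p = 4.35e-05), where 7 of 8 bleomycin mice were above the highest saline mouse, and Cdt1 was higher by 0.40 at day 2 already. The change of the Gmnn difference from day 1 to day 2 was 0.61 (adjusted p = 0.00101) and from day 2 to day 7 it was 0.46 (adjusted p = 0.00162). Among genes not on the list, 4 of 35 origin and fork genes were lower and 2 higher at day 1, as were 4 and 2 of 19 genes of the E2F and RB families and cyclins, while 16.7% of all genes were lower and 14.7% higher. The largest decrease in the second list was that of Ccna2, the S and G2 phase cyclin, with a log2 difference of -0.56 (adjusted p = 0.0122). In the first it was that of Cdca5, which holds sister chromatids together, also -0.56 (adjusted p = 0.0357).

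The second gene lower at day 1 was Rfc2, a clamp loader subunit, with a log2 difference of -0.14 (adjusted p = 0.0411), and 16.7% of all genes were lower that day. The 4 higher genes were Rrm1, Prim1, Rfc4 and Fen1, with log2 differences of 0.35, 0.21, 0.20 and 0.28. For Fen1, a flap endonuclease that trims Okazaki fragments, 7 of 8 bleomycin mice were above the highest saline mouse at day 1, but its brighter probeset differed by -0.04. For Rrm1 the highest of the 16 day 1 levels was that of a saline mouse, at 8.39, while the saline median was 7.47 and the bleomycin median 7.94.

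All 5 measured MCM ring genes were higher at days 2, 7 and 14, and their bleomycin and saline mice did not overlap at day 7. Mcm5 had day 7 levels from 9.71 (median 9.94) to 10.08 in bleomycin mice and from 8.55 (median 8.72) to 9.10 in saline mice. The difference was 1.13 (standard error 0.13), or 2.19-fold (adjusted p = 1.75e-12). At day 2 it was already 0.71 without overlap of the mice, at day 21 it was 0.53, and at day 28 it was -0.07 (adjusted p = 0.744). Of the Mcm5 probesets 1 responded less than the others at day 7, by 0.74 and 0.71.

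Mcm2 differed by 0.82 (standard error 0.11) and Mcm3 by 0.74 (standard error 0.10) at day 7. Mcm2 levels ran from 9.90 to 10.50 in bleomycin and from 9.03 to 9.59 in saline mice, and at day 21 its lowest bleomycin mouse (9.51) was still above its highest saline mouse (9.49). Mcm7 and Mcm6 differed by 0.58 and 0.54 at day 7.

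All 6 origin firing genes were higher at days 7 and 14, with a median log2 difference of 1.06 at day 7. Gins2, a GINS subunit of the active helicase, ran from 9.17 (median 9.54) to 9.65 in bleomycin mice at day 7 and from 7.85 (median 7.99) to 8.15 in saline mice. The gap between the groups was wider than the range of either. The difference was 1.48 (standard error 0.15), or 2.79-fold (adjusted p = 1.98e-14), and at day 14 it was 1.31.

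Its partner Gins1 differed by 1.24 (standard error 0.11), with levels from 9.08 to 9.67 after bleomycin and from 8.00 to 8.42 after saline. Mcm10, a scaffold of the firing origin, differed by 1.23 (standard error 0.13), from 8.00 to 8.42 after bleomycin and from 6.69 to 7.10 after saline. Neither gene's groups overlapped at days 7 and 14. A dimmer Mcm10 probeset gave 0.31 at day 7.

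Cdc45, the helicase partner of GINS, was higher on every day from day 2 to day 35. Its log2 difference was 0.90 at day 7 and 0.99 at day 14 (standard error 0.10, adjusted p = 3.07e-14), when bleomycin mice ran from 8.54 to 9.18 and saline mice from 7.61 to 8.05. Its second probeset moved less, by 0.15 at day 7, and was not called at day 14 (0.11). Dbf4, the activating subunit of the Cdc7 kinase, differed by 0.83 at day 7 and 0.82 at day 14 without overlap. The day 7 responses of the Dbf4 probesets differed by 0.66, so the size for Dbf4 rests on the probeset, and its call may too. Cdc7 itself differed by 0.49 at day 7 and 0.55 at day 14, then by -0.06 at day 21.

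**Figure D2:**
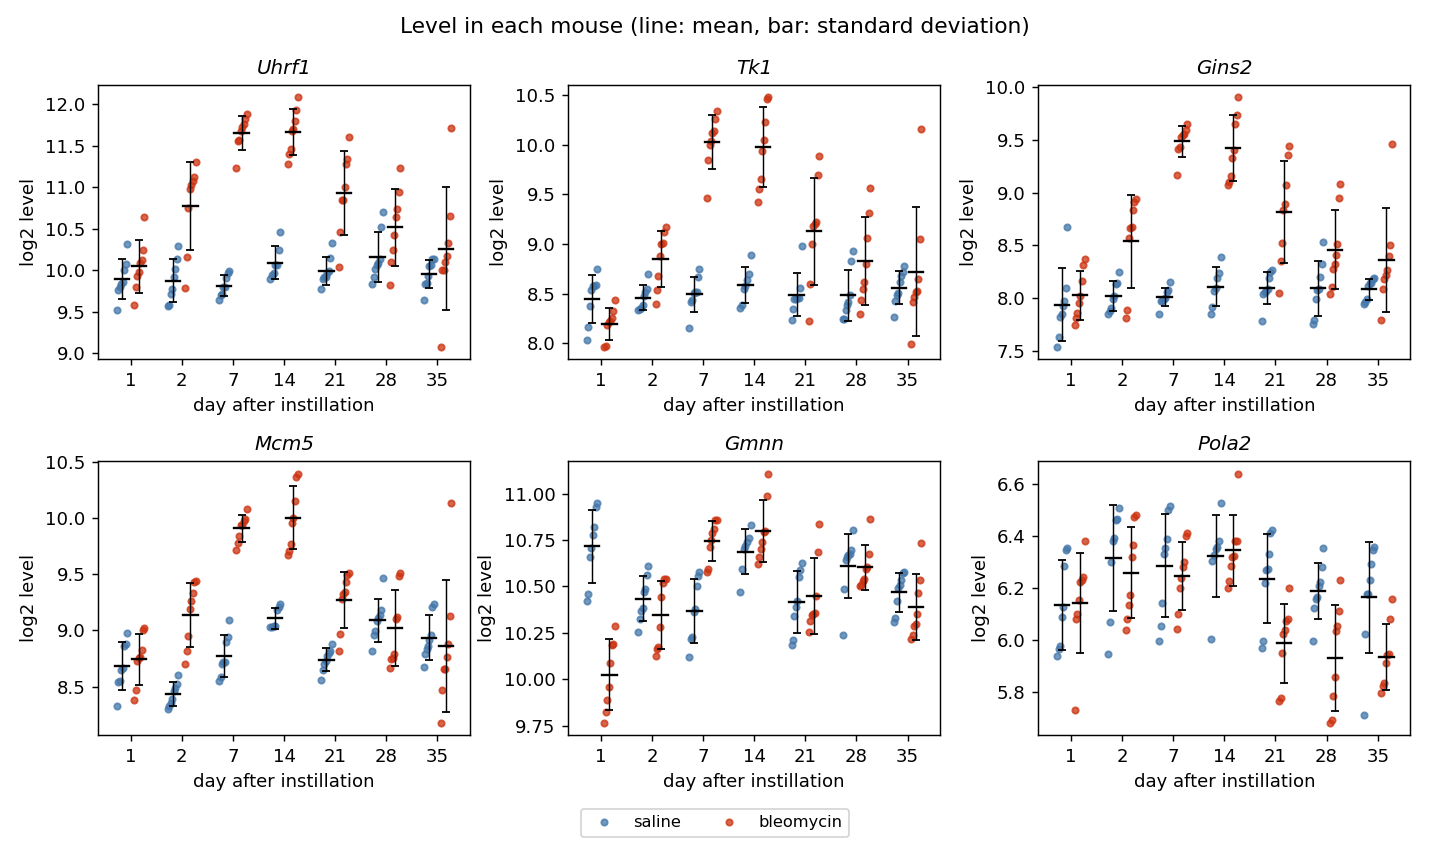
Log2 level of 6 genes in each mouse (points) by day, saline in blue and bleomycin in red, with the mean (line) and standard deviation (bar) of each group. At day 7 the bleomycin and saline points of Uhrf1, Tk1, Gins2 and Mcm5 do not overlap, Gmnn is separated downwards at day 1, and Pola2 overlaps at day 7.

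Fork genes were less uniform. Of 15 measured, 12 were higher at day 7 and 10 at day 14, with a median day 7 log2 difference of 0.43. The largest was that of Pole, the catalytic subunit of the leading strand polymerase ε. Its day 7 levels ran from 8.31 (median 8.46) to 8.85 in bleomycin mice and from 6.90 (median 7.15) to 7.47 in saline mice. The groups did not overlap, and their means differed by 1.40 (standard error 0.14), or 2.63-fold (adjusted p = 5.01e-14).

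Fen1 followed with 1.05 (standard error 0.10), its levels running from 9.44 to 10.40 in bleomycin and from 8.59 to 9.09 in saline mice, and its second probeset gave 0.73. Lig1, the ligase that seals Okazaki fragments, differed by 0.74 (standard error 0.08) and had no overlap at days 7 and 14. Primase (Prim1 and Prim2), the polymerase α catalytic subunit Pola1, and the clamp loader genes Rfc3 and Rfc4 differed by 0.42 to 0.57 at day 7. Of the Prim2 probesets 1 responded less than the others at day 7, by 0.63 and 0.58. Pole2, a smaller subunit of polymerase ε, was read by a dim probeset with day 7 levels from 5.32 (median 5.42) to 8.67 in bleomycin and from 4.88 to 5.29 in saline mice. Its difference of 0.68 was 0.28 (adjusted p = 0.0349) without replicate 3, the mouse at 8.67, and 0.81 with a brighter probeset. Because Pole2 was the middle gene of the 37 at day 7, the median over the genes went from 0.68 to 0.60 without that mouse.

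The single strand binding genes Rpa1 and Rpa2 differed by 0.18 and 0.31, and both passed.

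Rfc1, Pola2 and Pold1 were called at neither day 7 nor day 14. Pola2, the regulatory subunit of polymerase α, had day 7 levels from 6.04 (median 6.26) to 6.41 in bleomycin and from 5.997 (median 6.34) to 6.51 in saline mice. The groups overlapped throughout, with a difference of -0.04 (standard error 0.08, adjusted p = 0.738). Its other 2 probesets gave -0.19 (adjusted p = 0.0128 over all probesets) and -0.13 (adjusted p = 0.0841), so none of the 3 was higher.

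Rfc1, the large clamp loader subunit, differed by -0.06 (standard error 0.06) and its levels ran from 9.49 to 9.71 after bleomycin and from 9.43 to 9.89 after saline. Pold1, the catalytic subunit of polymerase δ, differed by 0.13 (standard error 0.08, adjusted p = 0.177). A dimmer Pold1 probeset gave 0.15 (adjusted p = 0.0105 over all probesets), so the call for this gene depended on the probeset.

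Both measured chromatin copying genes rose. Uhrf1, which reads hemimethylated DNA behind the fork and recruits the maintenance methyltransferase, had the largest difference of the 37 genes at days 2, 7, 14 and 21. Its day 7 levels ran from 11.23 (median 11.70) to 11.88 in bleomycin mice and from 9.64 (median 9.80) to 9.99 in saline mice. The difference of the means was 1.84 (standard error 0.18), or 3.57-fold (adjusted p = 5.42e-15). At day 14, where the groups did not overlap either, it was 1.57.

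At day 2 the Uhrf1 difference was 0.90 (adjusted p = 4.56e-05), with bleomycin mice spread from 9.78 to 11.30 and 6 of 8 above the highest saline mouse. Chaf1b, a subunit of the chromatin assembly factor that places histones on new DNA, differed by 0.96 (standard error 0.10) at day 7 and by 0.15 (adjusted p = 0.292) at day 2. Its second and dim probeset gave -0.13 at day 7 and was not called.

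All 4 measured nucleotide supply genes were higher at days 7 and 14, with a median day 7 log2 difference of 0.89. Tk1, the S phase thymidine kinase, ran from 9.46 (median 10.08) to 10.34 in bleomycin mice at day 7 and from 8.15 (median 8.51) to 8.75 in saline mice. The groups did not overlap, and the difference was 1.53 (standard error 0.16), or 2.89-fold (adjusted p = 1.99e-13). It was not past the threshold at day 2 (0.39, adjusted p = 0.0654).

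Rrm1, the large subunit of ribonucleotide reductase, was the only gene of the 37 called higher on all 7 days. Its day 7 levels ran from 8.51 (median 8.94) to 9.11 in bleomycin and from 7.62 (median 7.89) to 8.01 in saline mice, a difference of 1.03 (standard error 0.11). The early and late calls rested on the probeset, since the brightest Rrm1 probeset differed by 0.05 at day 1, 0.12 at day 28 and 0.17 at day 35, none past the threshold, but by 0.93 at day 7. Another and dim probeset gave 0.14 at day 7 (adjusted p = 0.343 over all probesets). Dut, which removes dUTP, differed by 0.74 (standard error 0.08) at day 7, and Tyms, thymidylate synthase, by 0.44. The day 7 responses of the Dut probesets differed by -0.72, so the size for Dut rests on the probeset, and its call may too.

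The difference between bleomycin and saline was compared between consecutive days. From day 1 to day 2 it increased for 7 genes (2.41% of all genes), Gmnn, Mcm5, Mcm6, Mcm10, Gins1, Pole and Lig1, 5 of which act at origins. The saline mean of each of these 7 genes was lower at day 2 than at day 1. For Mcm6 it was 11.11 against 11.41 and for Lig1 9.36 against 9.62. From day 2 to day 7 the difference between bleomycin and saline increased for 22 genes (11.6%), 12 of the 16 origin genes, 4 of the 15 fork genes and all of the chromatin and nucleotide genes. Tk1 had the largest step, 1.14 (standard error 0.23, adjusted p = 0.000133).

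Between day 7 and day 14 no gene passed in limma or with the ordinary contrast (0.286% of all genes rose and 0.382% fell), and at unadjusted p under 0.05 none was higher and 3 were lower. From day 14 to day 21 the difference decreased for 11 genes (3.71% of all genes), most for Tk1, by 0.75, Pole, by 0.67, and Cdc7, by 0.61. Without replicate 4 of the day 21 bleomycin mice it decreased for 4, Orc6, Cdc45, Cdc7 and Lig1, and without replicate 3 of that day for 14. No gene passed for the 2 later steps, where 0.0573% and 0.0191% of all genes fell and 0.0255% rose each time. At unadjusted p under 0.05, 9 were lower and 1 higher from day 21 to day 28, and 1 lower and 1 higher from day 28 to day 35.

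Subunits of 1 protein complex, each read by 1 probeset, did not rise alike. Differences between the day 7 responses of 29 pairs of subunits were tested with two-sided exact permutation tests over the 16 mice, and 19 pairs passed after adjustment over the 29. The smallest p this design allows is 0.000155. In the polymerase α-primase complex Pola1 exceeded Pola2 by 0.58 (standard error 0.11, adjusted p = 0.000563), whereas Pola1 and Prim1 differed by -0.03 (standard error 0.07, adjusted p = 0.729). In the MCM ring Mcm5 exceeded Mcm6 by 0.59 (standard error 0.06, adjusted p = 0.000563), and Mcm6 and Mcm7 differed by -0.04 (standard error 0.05), which did not pass.

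In the origin recognition complex Orc1 exceeded Orc6 by 0.66 and Orc2 by 0.58, and in the clamp loader Rfc1 was below Rfc3, by -0.49, and below Rfc4, by -0.48. For Pole and Pole2 the difference was 0.71 but with a standard error of 0.45 (adjusted p = 0.181), and Pole2 rests on a dim probeset. Probesets of the same gene differed too, in 16 of 42 pairs by the same test, by up to 1.09 for Chaf1b. Mcm5 probesets differed by up to 0.74, more than Mcm5 and Mcm6 did, and Orc1 probesets by 0.54. A difference between subunits may therefore lie in the probesets, which was not tested.

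**Figure D3:**
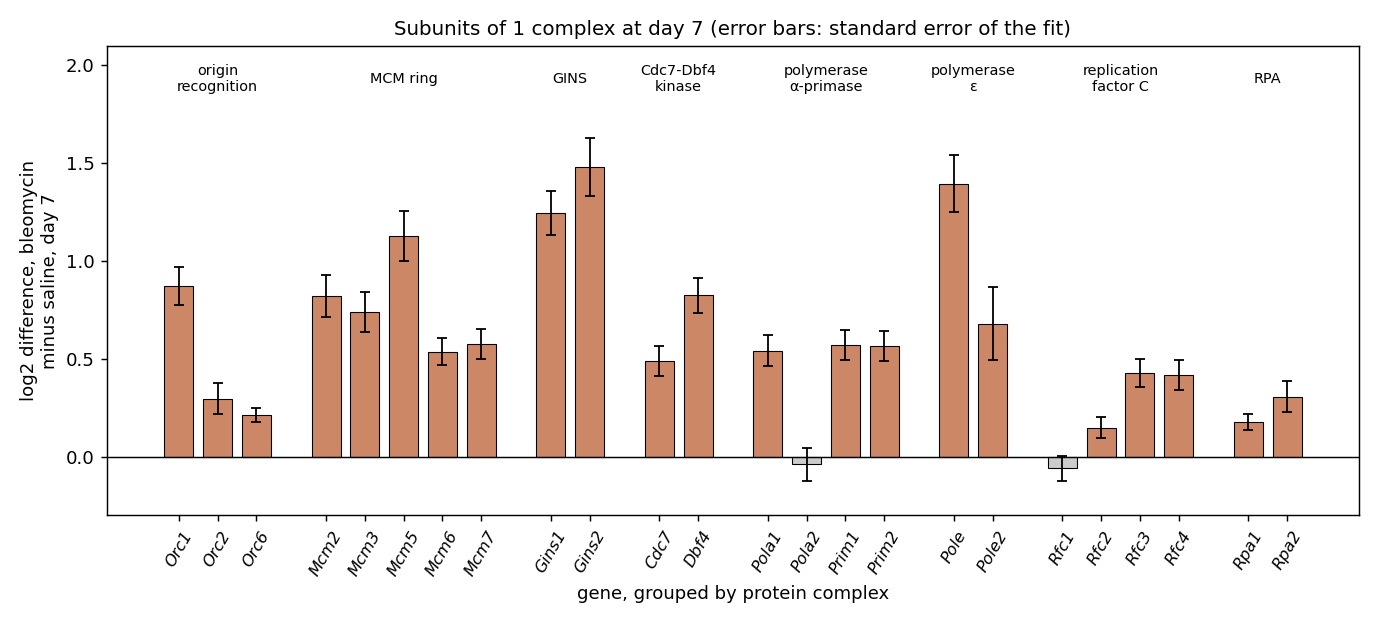
Difference between bleomycin and saline at day 7 (log2, bars; error bars are standard errors of the fit) for subunits of 8 complexes, grey where not past the threshold. Within a complex the bars are uneven, from 1.13 (Mcm5) to 0.54 (Mcm6) in the MCM ring and from 0.57 (Prim1) to -0.04 (Pola2) in the polymerase α-primase.

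Few of the 37 genes were lower at days 21, 28 and 35. Their share was below that of all genes at day 21 and close to it at days 28 and 35. The day 35 count rose when replicate 3 of its bleomycin mice was left out, as given below. At day 21 Rfc1 and Pola2 were lower (18.9% of all genes were), by -0.27 and -0.25. At day 28 Cdc7, Pola2 and Pold1 were lower (11.8%), and at day 35 Rfc1, Rfc2 and Pola2 (12.5%). For Pold1 the day 28 levels ran from 10.38 (median 10.59) to 10.68 after bleomycin and from 10.68 (median 10.91) to 11.02 after saline, and 7 of 8 bleomycin mice were below the lowest saline mouse. The difference was -0.32 (standard error 0.08, adjusted p = 0.00227). The Cdc7 difference at day 28 was -0.26 (adjusted p = 0.00787). The Rfc2 fall at day 35 was -0.14, and -0.04 with its brighter probeset (adjusted p = 0.605).

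The increases at days 28 and 35 were those of Cdc45 and Rrm1 at days 28 and 35 and of Dbf4 at day 35. Cdc45 differed by 0.25 (adjusted p = 0.0438) at day 28 and by 0.24 (adjusted p = 0.0464) at day 35, Rrm1 by 0.30 and 0.31, and Dbf4 by 0.32 (adjusted p = 0.00407). Their groups overlapped in each case, with 2 to 6 of 8 bleomycin mice above the highest saline mouse. Without replicate 8 of the day 28 bleomycin mice neither day 28 increase passed, Cdc45 at 0.19 (adjusted p = 0.153) and Rrm1 at 0.25 (adjusted p = 0.101), nor did the Pola2 decrease, at -0.22 (adjusted p = 0.0635).

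Single bleomycin mice differed widely from day 14 on. For each mouse the median over the 37 genes of its difference from the saline mean of the day was taken. At day 7 it ran from 0.56 to 0.75 in bleomycin mice and from -0.10 to 0.09 in saline mice, without overlap. At day 21 it ran from -0.06 to 0.54, at day 28 from -0.13 to 0.31, and at day 35 from -0.21 to 0.58, each overlapping with saline.

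At day 35 the highest value, 0.58, was that of replicate 3, and the next was 0.13. This mouse had the highest level of its group in 32 of 37 genes and lay above every saline mouse of the day in 28. Over all genes it also had the lowest median correlation with its group of any array, 0.978. Its Uhrf1 level was 11.71, where the other 7 bleomycin mice ran up to 10.66 and the median of the day 7 bleomycin mice was 11.70. Its Tk1 level was 10.15 against at most 9.05 in the others and a day 7 median of 10.08, and its Mcm5 level 10.13 against at most 9.12 and 9.94.

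Outside the 37 genes the same mouse was also highest for Esco2, a cohesin acetyltransferase of S phase, at 8.36 against at most 6.91 in its group. Its mean log2 level of the 5 fibroblast markers was 11.52 (others 10.75 to 11.31) and of the 6 macrophage markers 11.53 (others 10.92 to 11.50), both the highest of the group, and so was that of the 4 erythroid precursor markers, 6.64 (others 5.46 to 6.24, saline 5.78 to 7.62). Its 5 endothelial markers were lowest, at 11.12 (others 11.16 to 11.59). Its markers of alveolar type II (12.68, others from 12.72), alveolar type I (13.02, others from 13.04) and club cells (14.02, others from 14.06) were the lowest of the group too. Their part in its high levels was not tested. Without this mouse 1 gene, Dbf4, was higher at day 35 and 7 were lower, Orc6, Cdt1, Cdc7, Rfc1, Rfc2, Pole and Rpa1. With all mice 12.5% of all genes were lower that day, and the share without this mouse is not given here. As it was the highest of its group in 32 of the 37 genes, leaving it out favours lower calls. Pola2 at -0.21 (adjusted p = 0.0625), Cdc45 at 0.13 (adjusted p = 0.303) and Rrm1 at 0.21 (adjusted p = 0.124) no longer passed without it.

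At day 21 replicate 4 was the lowest of its group in 22 genes. Its median of -0.06 lay within the range of the saline mice, and so did its mean macrophage marker level of 10.47 (saline 10.36 to 10.65) and its fibroblast level of 10.70 (saline 10.39 to 11.04). Its endothelial level of 11.71 was level with the highest saline mouse (11.57 to 11.71), and its erythroid precursor level of 7.69 was above all others of the day. Replicate 3 of day 21 was highest in 23 genes, replicate 8 of day 28 in 27, and replicate 1 of day 14 in 23. Without replicate 3 the median difference of day 21 went from 0.21 to 0.18, and without replicate 4 to 0.26. The medians of the 2 last days changed sign. The day 28 median went from 0.03 to -0.01 without replicate 8, and the day 35 median from 0.02 to -0.06 without replicate 3. The mice left out were the highest of their groups in most genes, or the lowest in the case of replicate 4 of day 21. Leaving out such a mouse favours a shift of the median away from it. With medians as small as those of days 28 and 35, the change of sign is therefore no separate result.

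**Figure D4:**
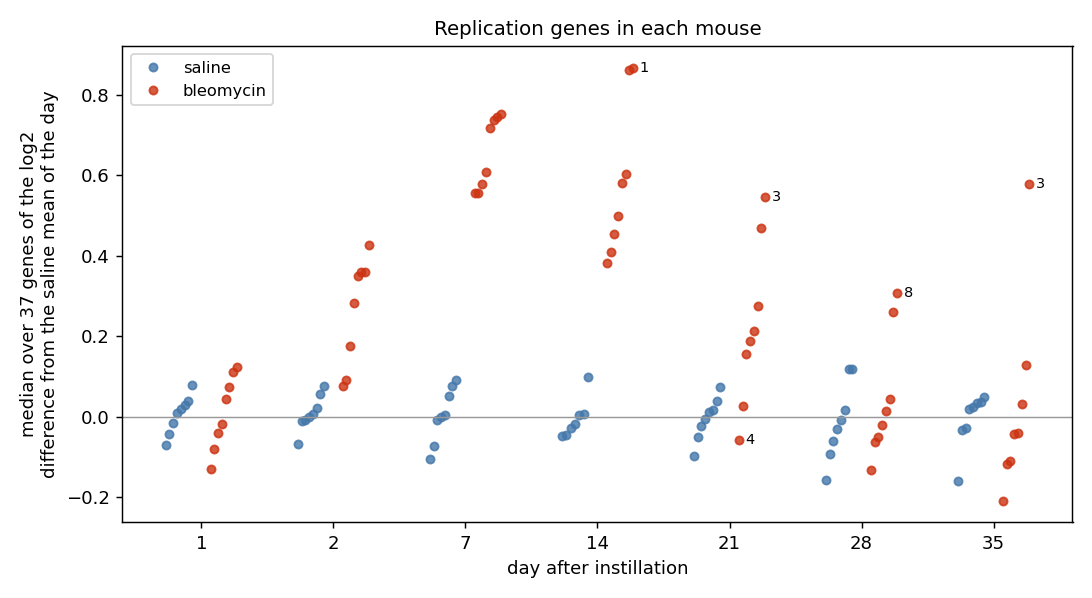
Median over the 37 genes of the log2 difference from the saline mean of the day, 1 point per mouse, saline in blue and bleomycin in red, with numbers giving the replicate of the mice named in the text. The day 7 and day 14 bleomycin mice lie above all saline mice, while at day 35 only replicate 3 (0.58) is as high as the day 7 mice.

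Levels also moved within the saline mice. Among the 7 saline groups 18 of the 37 genes differed by an F test, a share no larger than the 54.1% of all genes. The means of Mcm5 spanned 0.68 on the log2 scale, lowest at day 2 and highest at day 14, and those of Mcm2 0.66, lowest at day 2 and highest at day 28. Whether this follows the day of harvest or the handling of that day's arrays cannot be told apart, and all differences above are against saline mice of the same day.

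Genes of the same pathways that were not on the list moved in part with it. Of 35 measured origin and fork genes 24 were higher and 3 lower at day 7 (25.7% and 21.9% of all genes), with a median log2 difference of 0.40. Esco2 rose by 2.23 (standard error 0.27) and Cdca5 and Clspn, the latter a fork checkpoint mediator, by 2.09 each, all without overlap. Mcm9, an MCM relative of DNA repair, differed by -0.55 (standard error 0.13), and Orc3, an origin recognition subunit, by -0.45 (standard error 0.05). The Orc3 levels ran from 8.95 to 9.38 in bleomycin and from 9.53 to 9.69 in saline mice, so that all 8 were below (4.53% of all genes were), opposite to Orc1.

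Of 26 nucleotide metabolism genes 11 were higher and 6 lower at day 7, with a median of 0.10, and the share of lower genes was near the 21.9% of all genes. Dctd, which deaminates dCMP, rose by 1.20 (standard error 0.14) and Mthfd2, a mitochondrial folate enzyme, by 1.19 (standard error 0.14). Ctps2, a CTP synthase, fell by 0.68 (standard error 0.09). Rrm2b, the p53-inducible small subunit of ribonucleotide reductase, fell by 0.41 (standard error 0.09), with bleomycin mice from 8.93 to 9.36 and saline mice from 9.50 to 9.74, while Rrm1 rose.

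Of 19 genes of the E2F and RB families, cyclins E and A and their neighbours, 14 were higher and 2 lower, with a median of 0.43. Ccna2 rose by 1.72 (standard error 0.18) and E2f8, an E2F repressor, by 1.68 (standard error 0.18). Rbl2, the p130 pocket protein, differed by -0.24 (adjusted p = 0.000484), and E2f2 by -0.18 (adjusted p = 0.0289). E2f2 was lower at day 1 also, by -0.39, with all 8 bleomycin mice below the saline mice.

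Cell type markers also differed at day 7, when 25.7% of all genes were higher and 21.9% lower. All 6 macrophage markers were higher and their mean log2 level ran from 11.43 to 11.65 in bleomycin and from 10.49 to 10.82 in saline mice. Of 5 fibroblast markers 4 were higher and 1 was lower (mean level 11.35 to 11.68 against 10.67 to 11.02), all 5 endothelial markers were lower (10.95 to 11.37 against 11.39 to 11.78), and 4 of 5 alveolar type II markers were lower. Of 4 erythroid precursor markers, which belong to another dividing cell, 2 were lower (5.45 to 6.21 against 6.08 to 7.15), as were 1 of 4 T cell markers and 2 of 4 of B and plasma cells. Of 5 markers of thymocytes, the dividing cells of a neighbouring organ, 1 was lower and 4 were not called at day 7, and their mean level ran from 5.999 to 6.77 in bleomycin and from 6.16 to 6.51 in saline mice. At days 28 and 35, 4 of 6 macrophage markers were higher (11.5% and 16.9% of all genes were). Of 5 fibroblast markers 2 were higher at day 28 and 4 at day 35, with 1 lower on each day. Of 5 endothelial markers 4 were lower at day 28 and 3 at day 35 (11.8% and 12.5% of all genes were). The part of cell numbers in the changes was not tested.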

How the data were processed

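RNA of mouse lungs was amplified by the authors and hybridised to 1 array per mouse. The deposited values are log2 probeset levels that the authors normalised by RMA (version not given in the sources used here), and they were used as given. Of 32688 probesets 27871 named 1 gene in the platform annotation, 314 several and 4503 none, and only the first were used. The probeset with the largest variance over all arrays, whatever its direction, stood for each of 15707 genes. This choice favours a probeset that moves. It was made for 25 of the 37 genes, which have several of 70 probesets, and none had probesets called in opposite directions on a day. No other column of sample values was present.

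Group means of the 14 groups, taken from the sample titles, were fitted to all arrays with limma 3.58.1 in R 4.3.3. Contrasts were bleomycin against saline on each day, the change of that difference between consecutive days, and an F test over saline days. Benjamini-Hochberg adjustment ran over all genes of a contrast, with a threshold of 0.05. Subunit pairs were compared at day 7 by exact permutation of the treatment labels over mice. The fit was tested on simulated data. Promoters came from RefSeq (GRCm38.p6), while the genome build behind the probesets is not given in the sources used here. Levels run from 2.75 to 14.7, array medians from 8.61 to 8.73, and the median correlation of an array with its group from 0.978 to 0.995. The number of arrays limits the precision.

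Genes named were the 3 with the largest day 7 difference of each role, those that fell on a day, those called on day 28 or 35, those called on neither day 7 nor 14, and the 2 largest changes each way of 3 lists of related genes. Further genes named beside counts were chosen after their values were seen. The members and lists were chosen with earlier results of these data known. The alternatives were the highest mean probeset, the mean of the probesets, leaving out the 30% dimmest genes, a repeated quantile normalisation, subtraction of array medians, an ordinary contrast, array weights, a separate fit for each day, the pooled saline arrays of all days as control, replicate number as a block, and leaving out single mice.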

Additional observations from a re-analysis of the deposited data

Results flagged for a closer look

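Among the 518 sets of levels of 1 gene in 1 group, 36 had a mouse at one end whose gap to its neighbour, as a share of the group's range, exceeded Dixon's critical value, where chance alone passes about 1 in 20 such sets. The widest gap share was that of Pole2 in day 7 bleomycin replicate 3 (0.907), which had 8.67 where the next mouse had 5.63.

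Day 35 bleomycin replicate 3 was the highest mouse in 13 of the 36, with gap shares of 0.617 for Mcm3, 0.554 for Mcm6, 0.556 for Cdc45, 0.532 for Gins1, 0.574 for Gins2, 0.666 for Cdc7, 0.526 for Rfc4, 0.569 for Prim1, 0.538 for Pole, 0.636 for Lig1, 0.585 for Chaf1b, 0.604 for Rrm1 and 0.717 for Dut. Its median over the 37 genes also stood apart (0.572). The medians of the saline mice day 14 replicate 3 (0.627, highest) and day 35 replicate 8 (0.605, lowest) did so too, the latter with Mcm3 (0.546) and Mcm6 (0.586) lowest.

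In the other bleomycin groups the gap shares were 0.608 for Mcm2 and 0.681 for Pold1, both highest in day 1 replicate 3, 0.536 for Pola2 (lowest, day 1 replicate 8) and 0.584 for Cdc45 (lowest, day 2 replicate 5). Chaf1b had 0.599 (highest, day 7 replicate 8), Pola2 0.591 (highest, day 14 replicate 1), and Rpa1 0.557 (lowest, day 21 replicate 7) and 0.572 (lowest, day 28 replicate 4).

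In saline groups Fen1 (0.561, lowest, replicate 3), Rrm1 (0.564, highest, replicate 4) and Pole2 (0.59, highest, replicate 6) stood apart at day 1, and Rfc3 (0.536, lowest, replicate 8) at day 2. At day 7 these were Cdc7 (0.584, lowest, replicate 3) and Rfc2 (0.557, lowest, replicate 5), and at day 14 Orc6 (0.591, lowest, replicate 1), Rfc3 (0.608, highest, replicate 3) and Pola2 (0.57, lowest, replicate 5). At later days they were Orc2 (0.57, lowest, day 21 replicate 6), Tk1 (0.569, highest, day 21 replicate 4) and Tyms (0.556, highest, day 35 replicate 1).

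The difference between bleomycin and saline itself differed between consecutive days, by limma's test of that change, for 7 genes from day 1 to day 2 and 22 from day 2 to day 7, all upward, and for 11 from day 14 to day 21, all downward.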

How the results depend on the processing

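Of 88 called values of 24 named genes, recomputed 1401 times in all under the alternatives, 1350 kept call and direction, 50 lost the call and 1 reversed, Fen1 at day 1 (-0.044 with the highest mean probeset). The counts of higher genes at days 2, 7, 14 and 21 stayed within 1.5 times in every alternative, while the small counts of days 1, 28 and 35 did not. The causes were not tested. The number of arrays and dim probesets limit what can be seen. The single mice to leave out were chosen with values of these data known.

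With the highest mean probeset 2 genes were higher at day 1 and 1 was lower at day 14. With the mean of the probesets 1 was lower at day 14, 1 higher at day 28 and 1 at day 35. Without the 30% dimmest genes 1 was lower at day 21. Repeated quantile normalisation gave 1 lower at day 1 and 5 at day 35, and subtraction of array medians 1 lower at day 1. One fit per day gave 2 higher at day 1, 1 at day 28 and 1 at day 35, and 0 lower at day 35. With array weights 1 was lower at day 1, 4 were higher at day 28 and 7 lower at day 35, the difference increased for 14 genes from day 1 to day 2, decreased for 1 from day 7 to day 14 and for 24 from day 14 to day 21, and from day 21 to day 28 increased for 1 and decreased for 2. With all saline arrays as control 1 was higher and 1 lower at day 1, 2 were lower at day 2, 13 higher at day 28 and 5 at day 35, and the difference increased for 13 genes from day 1 to day 2, decreased for 30 from day 14 to day 21 and for 1 from day 21 to day 28.

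Leaving out single mice gave 0 to 4 higher at day 28, 1 to 3 higher and 3 to 7 lower at day 35, and decreases for 4 to 14 genes from day 14 to day 21 and for 0 to 1 from day 21 to day 28.

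With replicate number as a block 34 genes were higher at day 7, 29 at day 14 and 3 at day 28, and 12 decreased from day 14 to day 21. The block changed no other count. Over 55 same-numbered pairs the correlation of deviations ran from -0.33 to 0.41, 23 were over 0.1 and 10 mice correlated best with their own number, so the numbers were not taken as pairing.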
